A study of Homo sapiens with 68 samples.

Results

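The 6 day 5 vehicle arrays of an expression series on A673 cells, out of 68 arrays in all and 17 vehicle arrays, are described here as 2 sets of 3. The array titles define the sets: cells given DMSO vehicle for 5 days, replicates 1-3 in one and replicates 4-6 in the other. The split was picked with earlier results of these data known, in which the sets differed in the amino acid response, ribosome biogenesis and RNA quality. A673 is a cultured Ewing sarcoma line that carries the EWS/FLI fusion oncogene, and the series profiled it with ARA-C, doxorubicin or puromycin at the EC50 or 2 times the EC50, or with vehicle, for 24 hours, 3 days or 5 days. All cells were grown in the same medium, with fetal calf serum and sodium pyruvate, and none of the vehicle cells carried a knockdown or a transgene. RNA of each culture was measured on Affymetrix high-throughput human arrays, which give 1 signal (intensity, linear scale) per probe set. The vehicle arrays for the comparison at 24 hours are also 3 (replicates 1-3) and 3 (replicates 4-6), and at 3 days 2 (replicates 1-2) and 3 (replicates 4-6).

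The titles call every array a biological replicate but do not say whether replicates 1-3 and 4-6 were grown, collected or hybridised apart. The study's sample list places the day 5 sets in different rows of the array plate, replicates 1-3 in row E and replicates 4-6 in row H. The 24 hour sets lie in rows A and G, and the 3 day sets in rows C and G. Set, plate row and replicate number therefore cannot be told apart at any time, and p-values measure the spread between arrays within a set. In a bulk RNA sample, fewer cells of one kind and less RNA per cell cannot be told apart either.

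Cells short of amino acids, or with other stresses that lead to phosphorylation of the initiation factor eIF2, translate the transcription factor ATF4, which switches on genes for amino acid synthesis, amino acid uptake and tRNA charging together with its own partners and feedback regulators. Making ribosomes is among the largest costs of a growing cell: RNA polymerase I transcribes ribosomal RNA, box C/D and H/ACA ribonucleoproteins modify it, and large assemblies of processing factors build the 40S and 60S subunits in the nucleolus. Transcription of the processing factors is driven by MYC and follows nutrient supply through mTOR signalling.

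The day 5 sets differed in a measure of RNA quality. The arrays carry probe sets at the 3′ end, the middle and the 5′ end of ACTB (beta-actin) and GAPDH (a glycolytic enzyme), and a higher log2 ratio between the 3′ and the 5′ signal goes with shorter RNA or cDNA. For ACTB the ratio was 1.92, 2.08 and 1.93 in replicates 1-3 and 0.529, 0.664 and 0.629 in replicates 4-6, so the sets lay far apart without overlap. The means were 1.97 ± 0.0932 and 0.607 ± 0.07 (SD, n = 3 each), a difference of -1.37 with an exact permutation p of 0.1, the smallest that 3 against 3 arrays allow. GAPDH gave 0.633 ± 0.18 and 0.0864 ± 0.0774 (SD, n = 3 each), a difference of -0.546 with the same exact permutation p of 0.1. At 24 hours the ACTB ratio was 0.651 ± 0.162 in replicates 1-3 and 0.983 ± 0.194 in replicates 4-6, a difference of 0.332 (SD, n = 3 each; exact permutation p = 0.2), so the sign of the gap was opposite to that at day 5. Replicates 1-3 of day 5 thus had the highest ACTB ratios of all 17 vehicle arrays, while replicates 4-6 of day 5 lay among the other times. The share of the RNA quality gap in the gene differences below was not tested. A fit with the ACTB ratio as a covariate was run beside the main one, and its counts and medians are given for the gene lists, together with each gene given a day 5 difference here whose direction it turned. That fit takes the slope on the ratio only from arrays within a set (SD 0.07 to 0.194 at day 5 and 24 hours). The 3 day sets enter it too, with ratios of 0.365 and 0.814 in replicates 1-2 and of 0.289 to 0.626 in replicates 4-6. The fit carries the slope over the day 5 difference of -1.37. Calls can be lost through this lack of overlap alone, so fewer calls with the covariate do not measure the share of RNA quality.

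**Figure D1:**
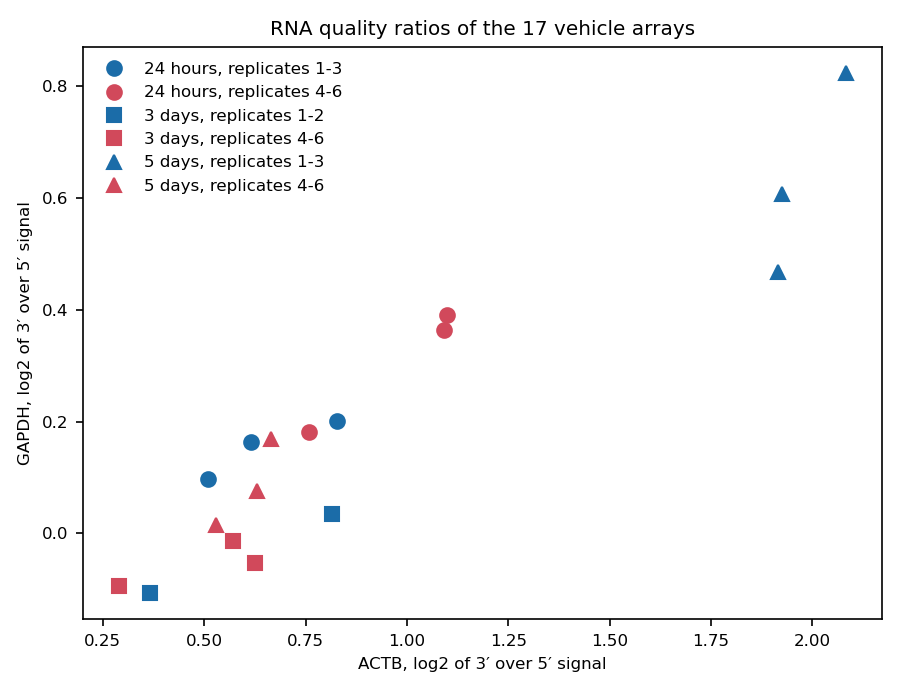
RNA quality on the 17 vehicle arrays, with ACTB on the x axis and GAPDH on the y axis (log2 of the 3′ signal over the 5′ signal), 1 point per array, shaped by time and coloured by set. The 3 points of day 5 replicates 1-3 lie between 1.92 and 2.08 on the x axis, to the right of all others.

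The day 5 replicates 4-6 also had a higher typical signal. The median signal of an array was 109 to 120 in replicates 1-3 and 155 to 158 in replicates 4-6, although all arrays had been scaled to a common mean. Signals of arrays within a set correlated at 0.9796 to 0.9819 (replicates 1-3) and 0.9835 to 0.9846 (replicates 4-6), and between the sets at 0.9639 to 0.9681. Between the 24 hour sets the range was 0.9769 to 0.9825. These are correlations of log2 signals across probe sets, which are not independent replicates.

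Signals were floored at 10, capped at 16000 and compared on the log2 scale with limma over the 17 vehicle arrays, with Benjamini-Hochberg adjustment over 22215 probe sets and a threshold of 0.05. Differences are given as replicates 4-6 minus replicates 1-3, so a positive log2 difference is a higher level in replicates 4-6. At day 5, 5260 probe sets (23.7%) were higher and 2174 (9.79%) lower. At 24 hours 171 (0.77%) were higher and 1014 (4.56%) lower, and at 3 days 239 (1.08%) and 745 (3.35%). The 24 hour counts rest on single arrays: without replicate 1, 5 or 6 they were 71, 95 or 77 higher and 239, 324 or 249 lower, and without replicate 2 the lower ones were 620. With 1 probe set for each of 11882 genes, the unit of the gene lists below, 23.9% were higher and 12.4% lower at day 5, against 1.04% and 5.54% at 24 hours. The median of all probe sets was itself shifted, by 0.12 at day 5 and by -0.13 at 24 hours. A lack of overlap between the sets was common. At day 5 all replicates 4-6 lay above all replicates 1-3 in 28.9% of probe sets and below them in 12.1%. At 24 hours these shares were 4.23% and 20.9%. With the ACTB ratio as a covariate, 59 probe sets were higher and 218 lower at day 5, and 105 of the 147 genes named here kept their direction without passing.

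The balance of higher and lower calls at day 5 depended on the scaling. After quantile normalization, which gives all arrays the same distribution, 15.8% of probe sets were higher and 17% lower (1.34% and 1.06% at 24 hours). After scaling to a common median, which moved the median of all probe sets to -0.34, 10.6% were higher and 34.3% lower (6.19% and 0.968% at 24 hours). Gene lists are therefore read against the median of all probe sets, and a list whose direction turned with the scaling is named as such. Counts near the shares of all genes (23.9% higher and 12.4% lower at day 5) do not set a list apart. The common median was set after the floor and the cap. A probe set at the floor or the cap in both sets thus takes the scaling step itself as its difference in that setting.

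The genes of the amino acid response stood higher in replicates 4-6 at day 5. Of 51 genes measured in 4 lists (regulators of the ATF4 pathway, enzymes of amino acid and one-carbon synthesis, amino acid transporters, and other ATF4 targets), 38 were higher, 2 lower and the rest passed in neither direction. Their median log2 difference was 0.69 against 0.12 for all probe sets. Higher calls also outnumbered lower ones after quantile normalization (39 and 5, median 0.54) and with a common median (23 and 11, median 0.23). With the ACTB ratio in the fit the median was 0.34, and 2 genes were higher and none lower, where 59 of all probe sets were higher and 218 lower.

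Among the regulators, 10 of 14 genes were higher and 1 was lower. TRIB3, a pseudokinase that ATF4 induces and that damps its activity, had signals of 2500, 3064 and 2539 in replicates 1-3 and of 6021, 6227 and 5885 in replicates 4-6. The sets did not overlap, and the level was 2.25-fold higher (log2 difference 1.17, SE 0.11, limma adjusted p = 6.51e-06). ATF5, a bZIP factor related to ATF4, read 1078, 1146 and 1277 against 3080, 3781 and 3805 (log2 difference 1.60, limma adjusted p = 5.17e-06). DDIT3, which encodes the stress factor CHOP, read 710, 810 and 733 against 1280, 1381 and 1328 (0.83, limma adjusted p = 3.29e-05). In each of these 3 genes every array of replicates 4-6 lay above every array of replicates 1-3.

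PPP1R15A, the phosphatase subunit that reverses eIF2 phosphorylation, was 2.44-fold higher, and ATF3, a bZIP factor induced by ATF4, had a log2 difference of 0.96 (limma adjusted p = 0.00187). NUPR1, a small stress-induced chromatin protein, read 20.3, 1.83 and 1.95 in replicates 1-3, with 2 of the 3 arrays below the floor of 10, and 131, 127 and 132 in replicates 4-6. Its log2 difference of 3.36 (limma adjusted p = 9.08e-06) therefore depends on the floor. ATF4 itself read 14051, 15251 and 14654 against 15494, 14839 and 16196, near the cap, with overlapping sets and a log2 difference of 0.08 that did not pass (limma adjusted p = 0.536) and was -0.38 with a common median. The one lower regulator, EIF2S1 (the alpha subunit of eIF2), had a log2 difference of -0.65, and its 3 probe sets passed in different directions.

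Enzymes of the pathway followed the same order of the sets. ASNS, which makes asparagine, read 6838, 9070 and 7617 in replicates 1-3 and 14328, 15288 and 14549 in replicates 4-6. The sets did not overlap, and the level was 1.89-fold higher (log2 difference 0.92, SE 0.11, limma adjusted p = 5.48e-05). PSAT1, an enzyme of serine synthesis, read 1895, 2337 and 2357 against 5628, 4358 and 4821 (log2 difference 1.17, limma adjusted p = 9.4e-05). PHGDH, which catalyses the first step of serine synthesis, had a log2 difference of 0.67 and read 5175, 5409 and 4741 against 8355, 7886 and 8037. PCK2, the mitochondrial phosphoenolpyruvate carboxykinase, was 2.38-fold higher, and PYCR1, an enzyme of proline synthesis, 1.92-fold. GOT1, a cytosolic aspartate aminotransferase, had a log2 difference of 0.43, and of -0.026 with a common median. In all, 10 of 13 enzymes were higher, and BCAT1, a branched-chain aminotransferase, was the 1 lower (-0.27), a call kept only without replicate 4 among the fits that left out 1 day 5 array.

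Of 10 transporters, 7 were higher and none lower. SLC43A1, a carrier of branched-chain and aromatic amino acids, read 357, 495 and 353 in replicates 1-3 and 1348, 1421 and 1323 in replicates 4-6 (log2 difference 1.78, SE 0.12, limma adjusted p = 5.81e-07). SLC3A2, the heavy chain shared by several carriers, read 1175, 1107 and 1141 against 1945, 2000 and 2079, a 1.76-fold higher level. SLC1A4, a carrier of neutral amino acids, was 1.74-fold higher. SLC6A9, a glycine transporter, had dim signals and a log2 difference of 2.15 (limma adjusted p = 0.0329), a call that was lost when any 1 of the 6 arrays was left out, and the difference was -0.84 with the covariate. SLC7A11, the cystine carrier and an ATF4 target, had a log2 difference of -0.06 that did not pass, and 2 of its 3 probe sets passed in opposite directions.

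Of 14 other ATF4 targets, 11 were higher and none lower. CHAC1, a glutathione-degrading enzyme, read 334, 657 and 394 in replicates 1-3 and 1172, 965 and 1107 in replicates 4-6 (log2 difference 1.28, SE 0.19, limma adjusted p = 0.000223). GDF15, a stress-induced secreted factor, read 190, 284 and 204 against 690, 1306 and 820, a 4.06-fold higher level. INHBE, an activin subunit, was 3.55-fold higher, HERPUD1, a protein of the endoplasmic reticulum membrane, had a log2 difference of 0.90, and VLDLR, a lipoprotein receptor, was 2.3-fold higher (log2 difference -0.77 with the covariate). The sets overlapped in none of these 5 genes. Replicates 4-6 likewise lay wholly above replicates 1-3 in 28.9% of all probe sets.

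Promoters were searched for TGATGNAA, the letters of the element that ATF4 and C/EBP factors bind as a pair, on both strands of the window from 250 bases before to 50 bases after each start (RefSeq, GRCh38.p14). The letters were present in 13 of 42 amino acid response genes with a window (31.0%), in 7 of 15 cytosolic tRNA synthetase genes (46.7%), in none of 64 ribosome biogenesis genes, and in 3.62% of all 35116 windows or 3.45% of 9591 measured genes. A match describes the letters and does not show binding. Stretches of 100 bases upstream of the start are shown for 4 of the higher genes, because they carry the element these genes share, with the matching letters in capitals, in the direction of transcription. ASNS lies on the minus strand at chr7:97872423-97872522, CHAC1 on the plus strand at chr15:40953221-40953320, HERPUD1 on the plus strand at chr16:56931920-56932019 and AARS1 on the minus strand at chr16:70289640-70289739.
ASNS: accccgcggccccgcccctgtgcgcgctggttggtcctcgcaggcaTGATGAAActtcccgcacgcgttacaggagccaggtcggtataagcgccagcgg
CHAC1: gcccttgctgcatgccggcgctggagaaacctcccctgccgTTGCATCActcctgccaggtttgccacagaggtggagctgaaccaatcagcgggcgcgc
HERPUD1: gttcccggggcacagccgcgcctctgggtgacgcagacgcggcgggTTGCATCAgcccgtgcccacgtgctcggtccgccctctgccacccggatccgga
AARS1: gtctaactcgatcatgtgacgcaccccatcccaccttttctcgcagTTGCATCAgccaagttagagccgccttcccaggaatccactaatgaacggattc

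The letters alone did not go with a higher level across the array. Of 331 measured genes with TGATGNAA, 24.2% were higher and 6.65% lower at day 5, and of 9260 genes without it 24.7% and 13.4%.

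The cytosolic tRNA synthetases, which charge tRNAs with amino acids, were less uniform. Of 18 genes, 9 were higher and 3 lower, with a median log2 difference of 0.15 that turned to -0.30 with a common median. With the covariate none was called and the median was 0.11. AARS1, the alanyl-tRNA synthetase, read 5409, 5620 and 5280 against 9065, 9433 and 8926, without overlap (log2 difference 0.75, limma adjusted p = 2.69e-05). LARS1, the leucyl-tRNA synthetase, was 1.74-fold and QARS1, the glutaminyl-tRNA synthetase, 1.39-fold higher, QARS1 with a log2 difference of -0.047 with the covariate. FARSA, a subunit of the phenylalanyl-tRNA synthetase, had a log2 difference of 0.46, and its other probe set passed in the opposite direction. The FARSA call was kept only without replicate 2 among the fits that left out 1 day 5 array, and the difference was -0.53 with the covariate. Of 10 mitochondrial synthetases 2 were higher and 1 lower, a balance that turned after quantile normalization (1 and 4) and with a common median (1 and 7), and none was called with the covariate.

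Translation factors moved both ways, with 6 of 35 higher and 10 lower, with 2 higher and 31 lower under a common median and with 1 in each direction with the covariate. EIF2S3, the gamma subunit of eIF2, read 1638, 1671 and 1821 in replicates 1-3 and 4900, 4100 and 4667 in replicates 4-6 (log2 difference 1.41, limma adjusted p = 7.02e-05). EIF4B, a cofactor of the helicase eIF4A, was 1.75-fold higher. With the covariate the log2 differences of EIF2S3 and EIF4B were -0.13 and -0.10. EIF5B, which joins the ribosomal subunits, read 8569, 9198 and 9064 against 4024, 4514 and 4525, a 2.06-fold lower level.

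**Figure D2:**
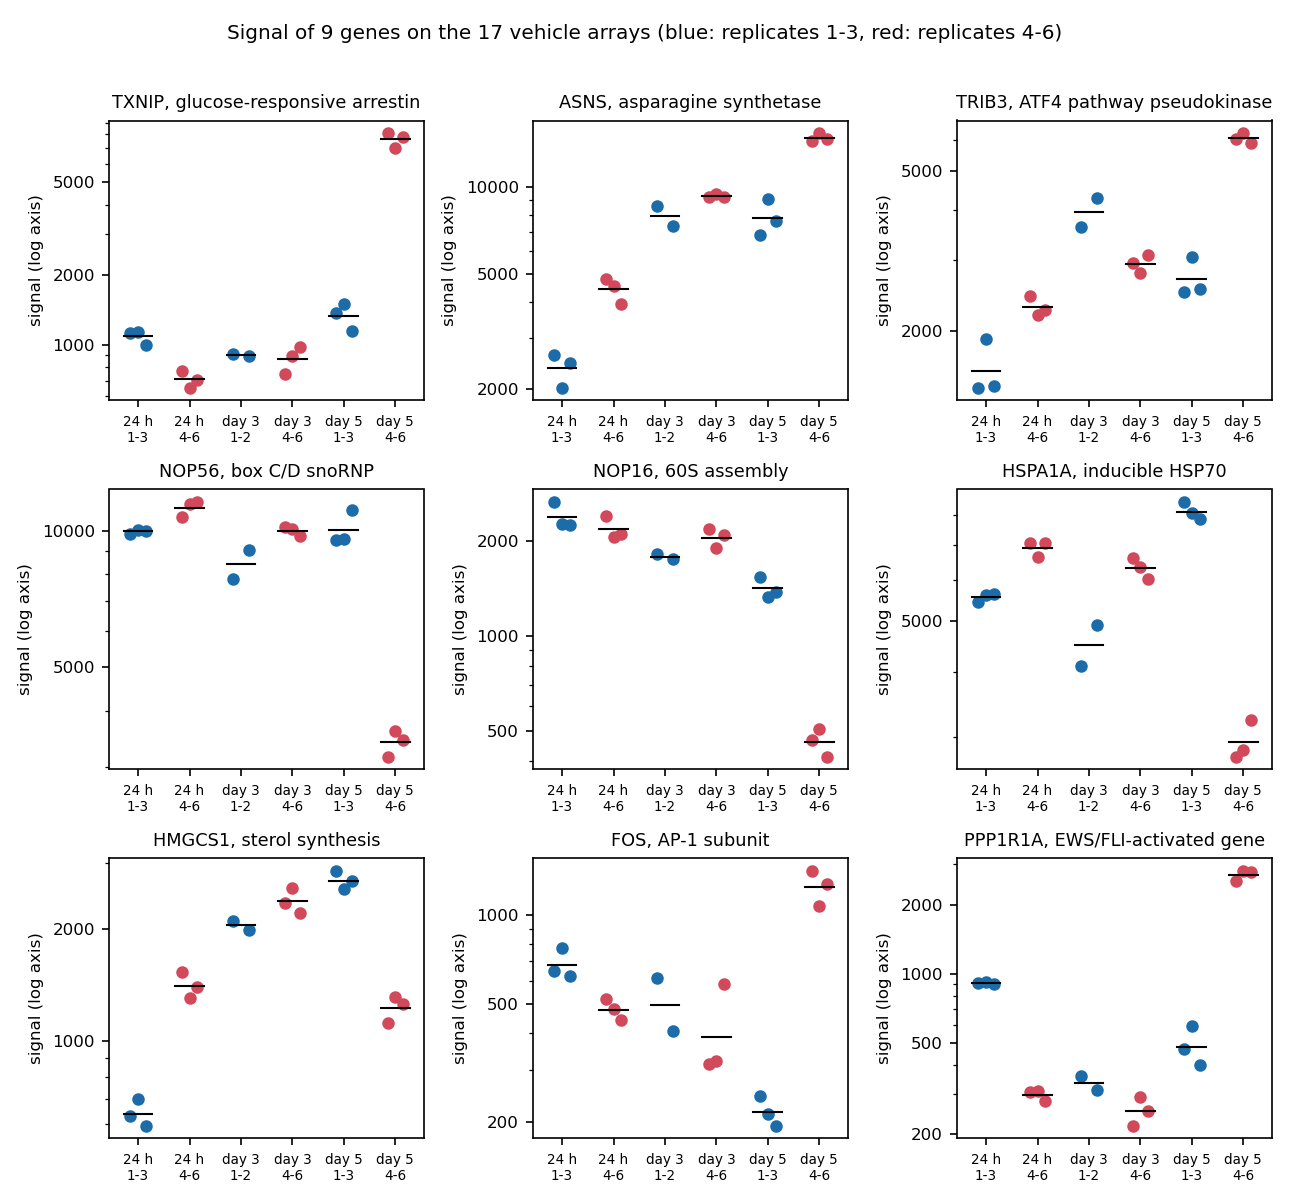
Signal (log axis) of 9 genes on the 17 vehicle arrays by time and set, 1 point per array (blue replicates 1-3, red replicates 4-6) and a bar at the geometric mean of each set. At day 5, TXNIP, ASNS, TRIB3, FOS and PPP1R1A sit higher and NOP56, NOP16, HSPA1A and HMGCS1 lower in replicates 4-6, with no overlap between the 3 and 3 arrays.

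Ribosome biogenesis genes stood lower in replicates 4-6 at day 5. Of 75 genes measured in 4 lists (snoRNP proteins, small subunit assembly, large subunit assembly and nucleolar granule proteins), 60 were lower and 1 was higher, with a median log2 difference of -0.62 against 0.12 for all probe sets. Lower calls prevailed after quantile normalization (62 lower, 2 higher, median -0.80) and with a common median (72 lower, none higher, median -1.08). With the ACTB ratio in the fit the median was -0.77, and 16 of the 75 were lower and none higher, where 218 of all probe sets were lower.

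Of the 10 proteins of box C/D and H/ACA snoRNPs, which guide methylation and pseudouridylation of ribosomal RNA, 9 were lower and none higher. NOP56, a core protein of box C/D particles, read 9553, 9588 and 11083 in replicates 1-3 and 3167, 3612 and 3446 in replicates 4-6. The level was 2.95-fold lower (log2 difference -1.56, SE 0.07, limma adjusted p = 2.24e-08), and the lowest array of replicates 1-3 lay far above the highest of replicates 4-6. NOLC1, a nucleolar chaperone of these particles, read 7975, 7859 and 7182 against 4454, 4024 and 4344 (-0.84, limma adjusted p = 6.16e-08). DKC1, the pseudouridine synthase of the H/ACA particle, and GAR1, another of its proteins, were 1.57-fold and 1.75-fold lower.

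Of 27 factors of the small subunit processome and 40S assembly, 23 were lower and none higher. RRP7A, a processome protein, read 1074, 1054 and 983 against 424, 419 and 386 (log2 difference -1.34, SE 0.08, limma adjusted p = 1.59e-07). UTP14A, which activates a helicase of the processome, read 1739, 1479 and 1717 against 526, 841 and 750 (-1.25, limma adjusted p = 1.66e-05). Neither gene overlapped between the sets. UTP20, a large scaffold of the processome, and IMP4, a protein bound to the U3 snoRNA, had log2 differences of -0.83 and -0.63, NOL6 of -1.04, and NOL10 of -1.03 on dim signals, where the NOL10 call was lost without replicate 1 or without replicate 4.

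Of 30 factors of 60S assembly, 23 were lower and 1 was higher. NOP16 read 1538, 1330 and 1375 in replicates 1-3 and 467, 508 and 414 in replicates 4-6, without overlap (log2 difference -1.61, SE 0.09, limma adjusted p = 1.96e-07). RRP15 read 1928, 1915 and 2045 against 714, 762 and 775, a 2.62-fold lower level. PPAN was 2.7-fold lower, and PES1, part of the complex that processes the 5.8S and 28S precursors, 2.43-fold. DDX21, a nucleolar RNA helicase, had a log2 difference of -0.65. The 1 higher gene, NMD3, an adaptor for nuclear export of the 60S subunit, read 723, 605 and 782 against 1274, 1020 and 1148 (0.71, limma adjusted p = 0.00112, and -0.35 with the covariate).

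Of 8 nucleolar granule proteins 5 were lower and none higher. NCL (nucleolin) read 10362, 9778 and 9536 against 7453, 6715 and 7290, without overlap (log2 difference -0.47, limma adjusted p = 6.61e-05). TCOF1, which links RNA polymerase I to ribosomal RNA processing, and MYBBP1A, a nucleolar transcription regulator, were 1.8-fold and 1.77-fold lower, and DDX47, an RNA helicase, 1.26-fold, a call lost without replicate 1. NPM1 (nucleophosmin) was above the cap on all 6 arrays, so no difference could be measured.

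The window of each gene was also searched for CACGTG, the E-box that MYC and MAX bind and that many other factors of their class recognise, which reads the same on both strands. It was present in 24 of 64 ribosome biogenesis genes (37.5%), in 7 of 18 genes of purine, pyrimidine and polyamine synthesis (38.9%), in 8 of 42 amino acid response genes (19.0%), and in 7.26% of all 35116 windows or 11.8% of 9591 measured genes. Stretches of 100 bases upstream of the start are shown for 4 of the lower genes, because they share the E-box, which is in capitals. UTP14A lies on the plus strand at chrX:129905914-129906013, UTP20 on the plus strand at chr12:101280005-101280104, DDX21 on the plus strand at chr10:68956547-68956646 and ODC1, which makes the polyamine putrescine, on the minus strand at chr2:10448013-10448112.
UTP14A: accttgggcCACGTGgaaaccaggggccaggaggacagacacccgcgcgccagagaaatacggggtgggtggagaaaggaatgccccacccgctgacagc
UTP20: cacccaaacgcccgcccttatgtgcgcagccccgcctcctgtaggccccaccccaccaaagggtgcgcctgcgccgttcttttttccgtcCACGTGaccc
DDX21: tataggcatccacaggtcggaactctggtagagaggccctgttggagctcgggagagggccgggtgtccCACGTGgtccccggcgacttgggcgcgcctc
ODC1: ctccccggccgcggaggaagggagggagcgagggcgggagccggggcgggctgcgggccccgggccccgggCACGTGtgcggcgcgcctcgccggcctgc

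Across the array, 23.9% of 1127 genes with CACGTG were higher and 18.6% lower at day 5, against 24.8% and 12.5% of 8464 genes without it. The ODC1 signal was 9342, 8813 and 9728 in replicates 1-3 and 6283, 5917 and 5671 in replicates 4-6, without overlap (log2 difference -0.64, limma adjusted p = 3.9e-07).

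The polymerases that make ribosomal and transfer RNA were mixed: of 27 subunits and factors of RNA polymerases I and III, 11 were lower and 3 higher, and none was called with the covariate (median -0.49). POLR3G and POLR3B, subunits of polymerase III, were 2.06-fold and 1.98-fold lower, POLR1G, a subunit of polymerase I, 2.03-fold, and BRF2, an initiation factor of polymerase III, 1.7-fold. UBTF, the activator of ribosomal DNA transcription, read 312, 262 and 408 against 224, 265 and 232, with overlapping sets and a log2 difference of -0.43 that did not pass (limma adjusted p = 0.0683).

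Cytosolic ribosomal proteins could be read only in part. Of 44 measured genes, 15 were at or above the cap on all 17 vehicle arrays and 39 on at least 1 of them. Below the cap 1 passed in each direction: RPS14, through a dim probe set (38.4, 20 and 25.4 against 96.4, 87.9 and 80.3), was higher, and RPL14 was 1.27-fold lower, a call lost without replicate 2, 3 or 4. With the covariate none was called, and RPS14 and RPL14 had log2 differences of -0.25 and 0.36. Without the cap the list's median log2 difference was -0.145, with 1 gene higher and 6 lower. With a common median 43 of 44 were lower, but that scaling was applied after the cap. A gene at the cap in both sets then takes the scaling step itself as its difference. The list's median was -0.46 with it and 0 in the main fit, so this count does not describe the genes.

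MYC, the driver of many biogenesis genes, did not share their direction. It read 7828, 6478 and 7892 in replicates 1-3 and 11018, 10517 and 9777 in replicates 4-6, without overlap. The level was 1.41-fold higher (log2 difference 0.50, SE 0.14, limma adjusted p = 0.0165). The call was lost without replicate 2 or without replicate 4, and the log2 difference was 0.05 with a common median. MXD4, a repressor that competes with MYC for MAX, and MLXIP, a nutrient-responsive partner of the network, were 1.82-fold and 1.7-fold higher. The MXD4 call was lost when any 1 day 5 array but replicate 2 was left out.

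Genes of nucleotide and polyamine synthesis were lower, 15 of 20, with 1 higher. With the covariate 3 were lower and none higher (median -0.62). UMPS, which completes UMP synthesis, read 1791, 1694 and 1612 in replicates 1-3 and 706, 778 and 697 in replicates 4-6, without overlap (log2 difference -1.23, SE 0.07, limma adjusted p = 1.59e-07). PFAS (purine synthesis), NME1 (nucleoside diphosphate kinase), CTPS1 (CTP synthesis) and SRM (spermidine synthesis) had log2 differences of -0.92, -0.92, -0.82 and -0.79. The 1 higher gene was CAD, the first enzyme of pyrimidine synthesis, at 0.69.

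Chaperones and the proteasome were lower too. Of 15 heat shock genes 13 were lower and none higher. HSPA1A, the inducible HSP70, read 8471, 8075 and 7848 against 2745, 2832 and 3222, without overlap (log2 difference -1.47, SE 0.07, limma adjusted p = 4.97e-08). HSPA1B, whose sequence is nearly identical so that the probe sets may share targets, was 2.94-fold lower, HSPH1, a nucleotide exchange factor for HSP70, 2.38-fold, and HSPE1, the mitochondrial co-chaperonin, 1.73-fold. Of 26 proteasome genes 20 were lower and 2 higher. The regulatory particle subunits PSMD1 and PSMD12 had log2 differences of -0.95 and -0.86. Both lists also had more lower than higher calls under quantile normalization (14 of 15 and 17 of 26 lower) and with a common median (15 and 25 lower). With the covariate 1 heat shock gene and 3 proteasome genes were lower and none higher (medians -0.53 and -0.36).

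DNA replication genes were lower in 20 of 31 cases and higher in 4, and with the covariate in 3 and none (median -0.58). CCNE1 (cyclin E1) read 710, 683 and 657 against 263, 274 and 336, a 2.36-fold lower level without overlap. CDC6, which loads the replicative helicase, and GINS2, a part of that helicase, were 1.92-fold and 1.69-fold lower. CDT1, the partner of CDC6, was 2.1-fold higher. Of 25 mitosis genes 7 were higher and 6 lower, beside 23.9% and 12.4% of all genes. Under a common median the counts were 1 and 20, and none was called with the covariate. AURKB and PLK1, both mitotic kinases, were 2.05-fold and 1.66-fold higher, and PLK1 had a log2 difference of -0.20 with the covariate.

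TXNIP, an arrestin that binds thioredoxin, restrains glucose uptake and is induced by glucose through MLXIP and its relatives, showed one of the clearest gaps. It read 1374, 1498 and 1150 in replicates 1-3 and 8100, 7030 and 7821 in replicates 4-6. The sets did not overlap, and the level was 5.73-fold higher (log2 difference 2.52, SE 0.11, limma adjusted p = 2.75e-08). All 3 of its probe sets were higher, and a dimmer one read 260, 198 and 203 against 2863, 2870 and 3300, a 13.8-fold higher level. Of 12 genes of nutrient sensing and FOXO signalling 7 were higher and none lower, among them INSR (the insulin receptor) at 3.41-fold, FOXO1 (a transcription factor restrained by insulin signalling) at 1.87-fold and YPEL5 at 1.79-fold. With a common median 5 of the 12 were higher and 3 lower and the list's median log2 difference was 0.04 in place of 0.50, and with the covariate 1 was higher and none lower (median 0.50).

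Of 17 genes of cholesterol synthesis and uptake 10 were lower and 3 higher, and none was called with the covariate (median -0.46). HMGCS1, which makes the precursor of mevalonate, read 2853, 2551 and 2686 against 1120, 1310 and 1259, without overlap (log2 difference -1.13, SE 0.08, limma adjusted p = 1.2e-06). NSDHL, a sterol dehydrogenase, and ACAT2, an acetyl-CoA acetyltransferase, were 2.81-fold and 1.69-fold lower, and SC5D, a sterol desaturase, was 2.95-fold higher. Of 27 glycolysis and hypoxia genes 7 were higher and 8 lower (3 and 15 with a common median, none with the covariate), beside 23.9% and 12.4% of all genes. ALDOC (aldolase C) and HK1 (hexokinase 1) were 3.26-fold and 1.88-fold higher, and HK2 (hexokinase 2) 1.85-fold lower.

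In the unfolded protein response, 5 of 18 genes were higher and 4 lower (2 and 13 with a common median, none and 1 with the covariate). XBP1, its transcription factor, was 2.06-fold higher and SDF2L1, a chaperone cofactor of the endoplasmic reticulum, 1.97-fold lower. Of 20 interferon-stimulated genes 6 were higher and 2 lower (5 and 6 with a common median, none with the covariate), mostly on dim signals. Of all genes 23.9% were higher and 12.4% lower, so the counts of higher genes in both lists were near the general share. The log2 differences of OAS3 and OAS1, sensors of double-stranded RNA, BST2, which tethers budding viruses, and IFIH1, an RNA sensor, were 2.85, 2.45, 2.83 and 2.74. For OAS3 the signals were 2.15, 16.4 and 13.3 in replicates 1-3 and 82, 98.5 and 102 in replicates 4-6.

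Immediate early and AP-1 genes split, with 5 of 18 higher and 5 lower (2 and 6 after quantile normalization, none and 1 with the covariate). FOS read 245, 212 and 194 against 1412, 1076 and 1280, without overlap (log2 difference 2.53, SE 0.23, limma adjusted p = 4.48e-06). Its relatives FOSL2 and FOSL1 were 4.31-fold and 2.49-fold lower. Of 17 neuronal genes 3 were higher and 6 lower, and 1 in each direction with the covariate. GAP43, a growth cone protein, read 1475, 1199 and 1265 against 203, 193 and 248, and NEFM, a neurofilament, 508, 421 and 481 against 87, 104 and 109 (log2 differences -2.61 and -2.24). NEFL, another neurofilament, was 3.86-fold lower, and SNAP25, a synaptic fusion protein, 2.99-fold higher.

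Of 25 genes of extracellular matrix and contraction 10 were higher and 2 lower, a balance that turned with a common median (2 and 9) and was none and 1 with the covariate. COL6A2, a chain of type VI collagen, read 132, 104 and 79.1 in replicates 1-3 and 765, 839 and 799 in replicates 4-6 (log2 difference 2.96, SE 0.25, limma adjusted p = 2.78e-06). AXL, a receptor tyrosine kinase and YAP target, read 66.1, 54.5 and 60.6 against 475, 508 and 486, an 8.13-fold higher level. Neither gene overlapped between the sets. Of 12 YAP target genes 4 were higher and 1 lower, and with the covariate 1 was higher and none lower. This balance turned after quantile normalization (2 and 3) and with a common median (2 and 5). CXCL8, a chemokine of the EWS/FLI screening signature, was 2.78-fold lower, and PDGFA, a growth factor of the same signature, had a log2 difference of 1.51 that did not pass (limma adjusted p = 0.0942).

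Both sets carried the markers of Ewing sarcoma cells. NKX2-2, a homeobox factor that EWS/FLI induces, read 5712, 5231 and 5419 in replicates 1-3 and 9277, 9364 and 9661 in replicates 4-6, and PRKCB, a protein kinase C, 4787, 4577 and 4031 against 8032, 9109 and 8060. Of 15 such markers 9 were higher in replicates 4-6 and 1, EWSR1, was lower (log2 difference -0.34). With a common median 6 were higher and 2 lower, with the list's median turning from 0.36 to -0.09, and with the covariate 1 was higher and none lower. PPP1R1A, a phosphatase inhibitor of the screening signature, read 468, 591 and 402 against 2527, 2793 and 2766, without overlap (log2 difference 2.48, SE 0.13, limma adjusted p = 8.11e-08). GSTM4, a glutathione transferase, and FCGRT, an Fc receptor, had log2 differences of 2.16 and 1.37.

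Few markers of other cell types were called. Of 14 blood cell markers 1 (LCP1) was higher, of 11 epithelial markers KRT8 was higher and KRT18 and KRT19 were lower, where the KRT18 call was lost without replicate 1, 2, 3 or 5. Of 8 endothelial markers EMCN was higher and CLDN5 lower (6.29-fold), with a list median of -0.34 (-0.63 after quantile normalization). With a common median 1 blood cell marker was higher and 3 lower, and 5 epithelial and 4 endothelial markers were lower and none higher. The medians of the blood cell and epithelial lists were 0 in the main fit and -0.46 in that setting. This is the scaling step that a gene at the floor in both sets takes, so these lower calls cannot be told apart from the scaling. No marker of these lists was called with the covariate. On the 6 arrays HBA1 lay between 2.07 and 5.8 and PTPRC between 1.18 and 17.5. Keratins KRT8 and KRT18 were well expressed in both sets, with signals of 1594 to 3058 and of 8109 to 9975.

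The probe sets that the study listed as changing with EWS/FLI knockdown had more higher than lower calls in both directions of response, and for 1 direction this balance turned with a common median. All probe sets had more higher than lower calls too, 23.7% against 9.79%, so the balance alone is not particular to these sets. Of the 66 that rise with EWS/FLI knockdown 22 were higher in replicates 4-6 and 5 lower (14 and 10 after quantile normalization, 9 and 17 with a common median), and of the 77 that fall with it 46 were higher and 1 lower (44 and 8, then 27 and 18). The off score (first set minus the other, each as its mean on the log2 scale) was -1.838, -1.852 and -1.951 in replicates 1-3 and -2.219, -2.277 and -2.194 in replicates 4-6, so the sets did not overlap. At 24 hours it was -2.219, -2.236 and -2.231 in replicates 1-3 and -1.962, -1.984 and -2.041 in replicates 4-6, the opposite order.

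The 10 largest higher and 10 largest lower differences, among probe sets above the 40th percentile of signal in the higher set, were mostly of genes with dim signals in the lower set. Higher were PTGDS (18.9-fold), XPNPEP2 (13.9-fold), TXNIP, TESMIN (13-fold), ALDH1L1 (11.8-fold), PLEKHB1 (11.2-fold), FLOT1 (10.5-fold), NUPR1, MFAP4 (9.52-fold) and GSN (9.27-fold). PTGDS, which makes prostaglandin D2, read 1.89, 5.23 and 6.4 against 173, 262 and 149. Lower were TRGV9 (8.84-fold) and TARP (5.91-fold), which share the T cell receptor gamma locus, LAMP1 (7.28-fold), CLDN5 (6.29-fold), GAP43, NUP188 (5.4-fold), PPP1R17 (5.3-fold), B4GALNT1 (5.18-fold), CD24 (4.94-fold) and SLC6A6 (4.73-fold). LAMP1, a lysosomal membrane protein, had 3 of its 4 probe sets lower and 1 higher.

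The split at 24 hours, which uses other arrays, was of another kind. Of the 5260 probe sets higher at day 5, 42 were also higher at 24 hours (0.798% of these and 24.6% of the 24 hour calls), while 633 were lower there. Of the 2174 lower at day 5, 88 were lower at 24 hours (4.05% and 8.68%) and 68 higher. Across 22215 probe sets, which are not independent replicates, the differences at the 2 times correlated at -0.19, and at -0.147 after quantile normalization. The day 5 difference exceeded the 24 hour one in 5464 probe sets (24.6%) and was below it in 1497 (6.74%) in the limma test of the difference between them. Against the 3 day split, 18% were higher and 5.87% lower.

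**Figure D3:**
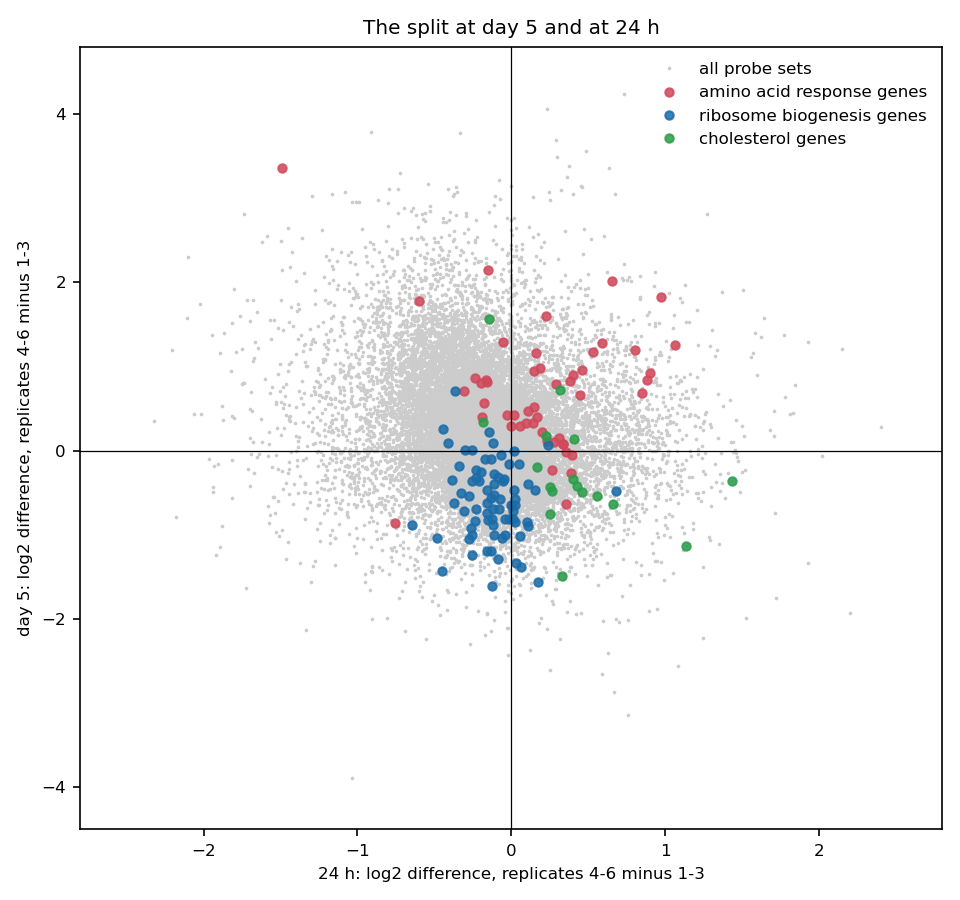
Log2 difference of each probe set between replicates 4-6 and 1-3 at 24 hours (x axis) and at day 5 (y axis), with all 22215 probe sets in grey and the genes of 3 groups in colour. Most ribosome biogenesis genes lie below 0 on the y axis and near 0 on the x axis, most amino acid response genes above 0 on the y axis, and most cholesterol genes right of 0 and below 0.

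In the amino acid response higher calls outnumbered lower ones at 24 hours as at day 5, in fewer genes. At 24 hours 15 of the 51 genes were higher in replicates 4-6 and 2 lower (median 0.20 against -0.13 for all probe sets), and at 3 days none was higher and 8 were lower (median -0.15). The day 5 difference was above the 24 hour one in 24 of the 51 genes and below it in 5. ASNS read 2636, 2029 and 2468 against 4812, 4548 and 3949 at 24 hours, without overlap. Its log2 difference of 0.90 (limma adjusted p = 0.00218) at 24 hours and of 0.92 at day 5 differed by 0.01, which did not pass (limma adjusted p = 0.991). PCK2 likewise had 1.06 at 24 hours and 1.25 at day 5. TRIB3 and DDIT3 had 0.53 and 0.38 at 24 hours, and for both the day 5 difference was larger by the limma test of the difference (adjusted p = 0.00701 and 0.0251). ATF5, PPP1R15A, PSAT1, SLC3A2 and SLC1A4 did not pass at 24 hours, and SLC43A1 and NUPR1 were lower there (-0.60 and -1.49).

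Ribosome biogenesis showed no such gap at 24 hours: 6 of 75 genes were lower and none higher, with a median of -0.12 against -0.13 for all probe sets. This balance turned with the scaling. After quantile normalization 1 was higher and 1 lower. With a common median 13 were higher and none lower (median 0.13, against 0.12 for all probe sets). NOP56 read 9848, 10040 and 9998 against 10693, 11440 and 11555 (log2 difference 0.17, limma adjusted p = 0.155). The day 5 difference was below the 24 hour one in 39 of the 75 genes and above it in 3. Heat shock genes (1 of 15 higher at 24 hours, none lower) and the proteasome (1 of 26 higher, 1 lower) were like it in this respect, and for 12 and 18 of their genes the day 5 difference was below the 24 hour one. With a common median 6 of the 15 and 12 of the 26 were higher at 24 hours and none lower. Their medians were then 0.255 and 0.32, against 0.12 for all probe sets.

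Cholesterol synthesis ran in opposite directions. At 24 hours 6 of 17 genes were higher and none lower, with a median of 0.33 against -0.42 at day 5, and for 11 genes the day 5 difference was the lower of the 2. HMGCS1 read 631, 698 and 594 against 1531, 1307 and 1395 at 24 hours, without overlap (log2 difference 1.14, limma adjusted p = 8.04e-05). TXNIP and PPP1R1A ran the other way round: TXNIP read 1125, 1137 and 999 against 773, 654 and 706, and PPP1R1A 910, 916 and 904 against 304, 307 and 279, both lower in replicates 4-6 at 24 hours. Ewing sarcoma markers were lower in 5 of 15 cases at 24 hours and higher in none. With a common median 3 were lower and 2 higher, with a list median of -0.13 in place of -0.38.

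The largest 24 hour differences were of dim genes. They were the higher APAF1, SLC2A6 and DSCAM (log2 differences 2.40, 2.20 and 2.15) and the lower CACNA1H, LTB4R and FGF4 (-2.21, -2.10 and -1.96). The genes whose day 5 difference most exceeded the 24 hour one were NUPR1, XPNPEP2, LRRC37A, LTB4R and DNAJC4, and those where it fell most below it were SLC2A6, TRGV9, TARP, LAMP1 and EBI3.

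**Figure D4:**
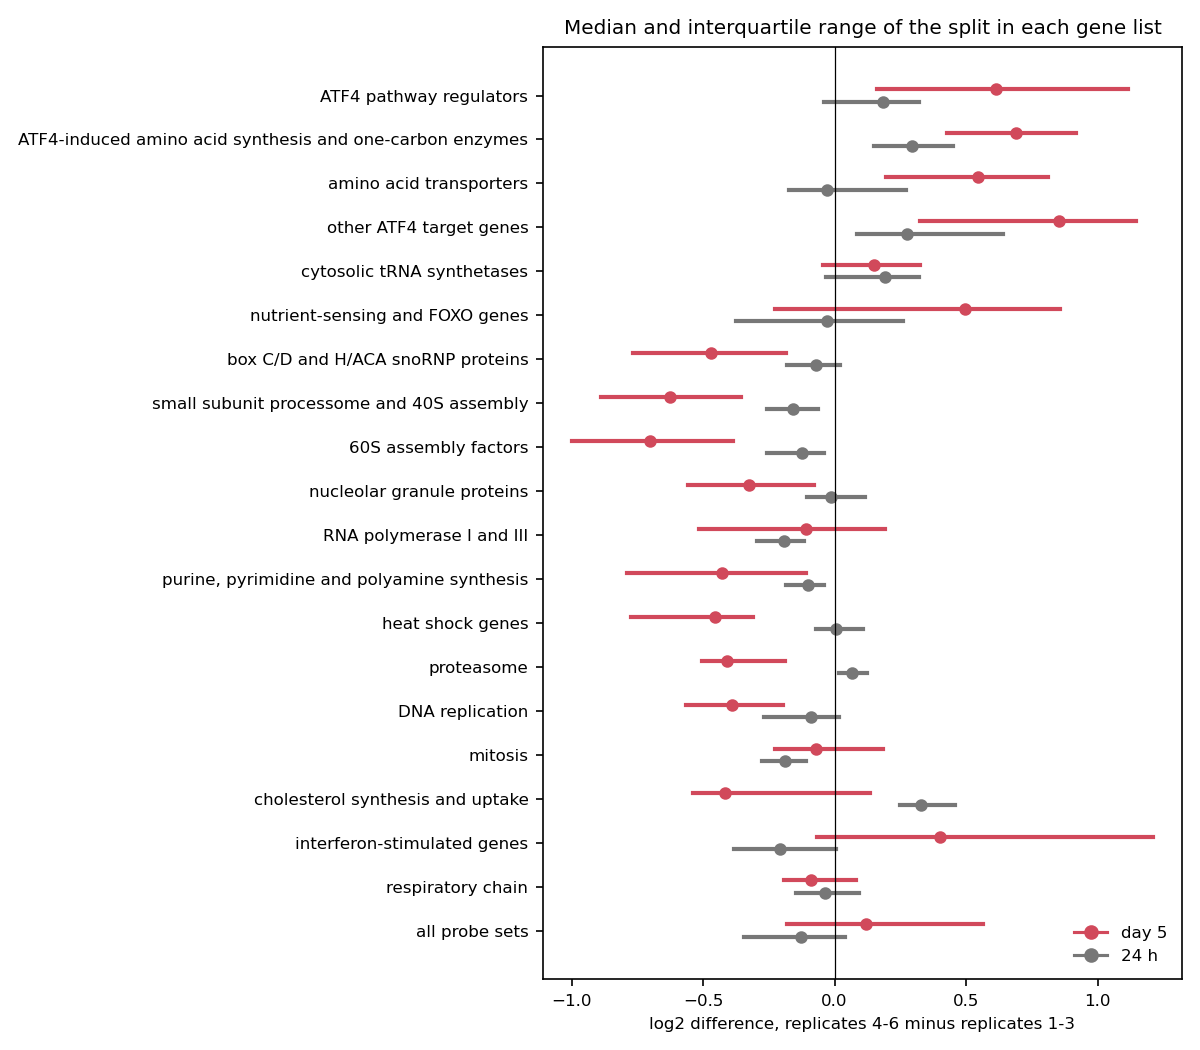
Median (point) and interquartile range (line) of the log2 difference between replicates 4-6 and 1-3 in each gene list and in all probe sets, at day 5 (red) and 24 hours (grey). At day 5 the ATF4 lists lie right of the median of all probe sets (0.12) and the lists of small and large subunit assembly left of it (-0.63 and -0.70), while the 24 hour medians of these 2 lists are -0.16 and -0.12.

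In most of these genes it was replicates 4-6 of day 5 that stood apart from the rest of the vehicle arrays. All 3 lay below the other 14 vehicle arrays for 56 of the 75 ribosome biogenesis genes, against 6.78% of all probe sets, and for 13 of 15 heat shock and 16 of 26 proteasome genes. They lay above all 14 for 28 of the 51 amino acid response genes, against 15.4% of all probe sets. Replicates 1-3 lay above the other 14 arrays in 1.07% of all probe sets and in none of the 51 or the 75 genes, and below them in 3.95%, with 5 of the 51 and 1 of the 75. In gene levels replicates 4-6 were thus the outlying set, and in the RNA quality ratio replicates 1-3.

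From day 3 to day 5 the median log2 change of the amino acid response genes was -0.11 in replicates 1-3 and 0.47 in replicates 4-6, and that of the biogenesis genes -0.29 and -0.84. These are medians of set means, with no test.

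The treated day 5 arrays give a further setting for the 2 states, with no test. The mean log2 signal of the biogenesis genes over that of all probe sets was 3.837, 3.772 and 3.777 in vehicle replicates 1-3 and 2.993, 2.973 and 2.985 in replicates 4-6. The 3 arrays of ARA-C at 0.34 uM, which share plate row H with vehicle replicates 4-6, had 3.471, 3.417 and 3.44. Leaving out puromycin 0.09 uM replicate 3, whose value was 0.9452 and whose signal of PTPRC, a leukocyte marker, was 3842, all treated day 5 arrays lay between 3.127 and 4.104, above vehicle replicates 4-6. This order depends on taking off the mean of all probe sets, which was 7.299, 7.304 and 7.319 in vehicle replicates 4-6. Without that step ARA-C at 0.17 uM had 10.43, 9.848 and 10.27 for the biogenesis genes, against 10.29, 10.28 and 10.3 in vehicle replicates 4-6. For the amino acid response the values were 3.142, 3.323 and 3.142 in replicates 1-3 and 3.663, 3.668 and 3.701 in replicates 4-6, while ARA-C at 0.34 uM had 3.372, 3.455 and 3.353, the highest of the treated arrays being 3.455.

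**Figure D5:**
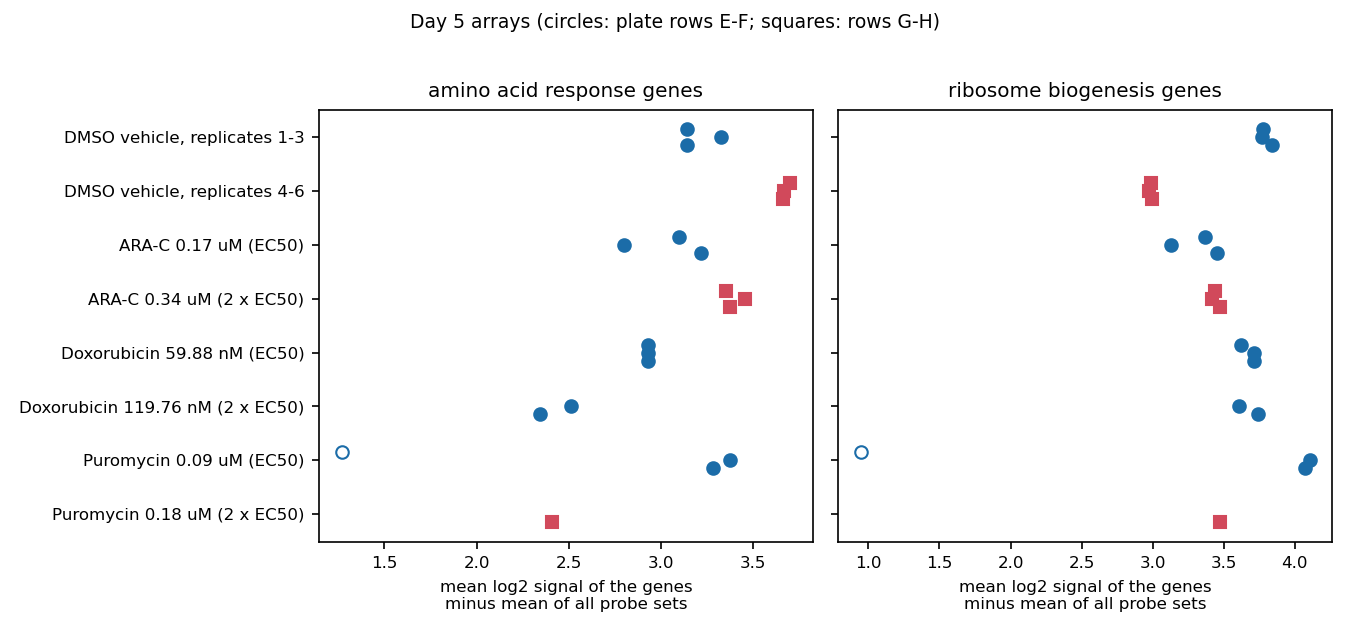
Mean log2 signal of the amino acid response genes (left) and ribosome biogenesis genes (right) minus the mean of all probe sets on each day 5 array, by treatment; circles are arrays in plate rows E-F, squares those in rows G-H, and the open circle is puromycin 0.09 uM replicate 3. Vehicle replicates 4-6 lie at 3.663 to 3.701 on the left, right of all other arrays, and at 2.973 to 2.993 on the right, left of all others but the open circle.

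Single genes did not all give the same picture beside the treated arrays. NOP56 read 9200, 9147 and 9083 with ARA-C at 0.34 uM in plate row H, near vehicle replicates 1-3 and above the 3167 to 3612 of replicates 4-6. TXNIP read 1136, 1001 and 1029 there, below all 6 vehicle arrays of day 5. NUPR1, in contrast, read 341, 441 and 356, above the 127 to 132 of vehicle replicates 4-6.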

How the data were processed

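RNA of A673 cells was hybridised to Affymetrix high-throughput human arrays, and the authors deposited 1 table of MAS5 signals, intensity values on a linear scale that they had scaled to a common mean per array. The MAS5 version is not given in the sources used here. Of 22930 probe sets, 715 controls were left out and 22215 tested. Genes are named only where the platform annotation gives 1 symbol (19230 probe sets), and in lists by the probe set with the highest mean signal. Signals were floored at 10, capped at 16000 and compared on the log2 scale with limma 3.58.1 (R 4.3.3) over the 17 vehicle arrays in 6 sets (intensity trend, 11 residual degrees of freedom). MAS5 gives no counts, so the number of arrays limits the precision, and dim signals are the least certain. The method was tested on simulated data with independent noise for each probe set. The simulation held no array-wide shift and no RNA quality gap, so it does not bear on those.

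Named were the 10 largest day 5 differences in each direction (no overlap of the arrays, signal above the 40th percentile), the 4 largest of a list, fixed genes, and the 5 or 3 largest of the comparison with 24 hours and of 24 hours itself. Not all of these are printed, and genes outside the rule (members of the groups, such as CAD, NMD3, GOT1 and ATF3, and those whose promoters are shown) were chosen after their values were seen. The arrays, lists and tests were chosen with earlier results of these data known, so no list is independent support. Alternatives were the scaling, floor, cap, dim probe sets, arrays in the fit, the ACTB ratio as a covariate and leaving out each array. Promoter sequences are those of RefSeq, GRCh38.p14.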

Additional observations from a re-analysis of the deposited data

Results flagged for a closer look

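Each difference below was tested itself, as the day 5 difference minus the 24 hour difference (both replicates 4-6 minus replicates 1-3) in the limma fit, with adjusted p under 0.05, and is given on the log2 scale. Over all probe sets the day 5 difference was the higher in 5464 and the lower in 1497. In the amino acid response the values were ATF5 1.38, NUPR1 4.85, PPP1R15A 1.34, TRIB3 0.64, DDIT3 0.44, PSAT1 1.01, PYCR1 0.79, GOT1 0.41, SLC43A1 2.38, SLC3A2 0.97, SLC1A4 1.00, GDF15 1.37 and HERPUD1 0.50, and below 0 EIF2S1 -0.66, BCAT1 -0.66 and SLC7A11 -0.45. Among genes of tRNA charging and translation they were AARS1 0.45, LARS1 0.93, QARS1 0.73, FARSA 1.18, EIF2S3 1.61, EIF4B 1.08 and EIF5B -1.27.

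In ribosome biogenesis the values were NOP56 -1.73, NOLC1 -0.87, GAR1 -0.68, DKC1 -0.65, RRP7A -1.37, UTP14A -0.99, UTP20 -0.60, NOP16 -1.49, PPAN -0.98, RRP15 -1.45, PES1 -1.20, DDX21 -0.68, TCOF1 -0.95 and NCL -0.63, with NMD3 at 1.07. The polymerase genes POLR1G and POLR3B had -0.66 and -0.75, and the ribosomal protein genes RPS14 and RPL14 2.50 and -0.62. In nucleotide and polyamine synthesis they were UMPS -1.17, PFAS -1.02, NME1 -1.10, CTPS1 -0.70, SRM -0.48, ODC1 -0.59 and CAD 1.14, and in the MYC network MXD4 1.23 and MLXIP 1.19. Heat shock and proteasome genes gave HSPA1A -1.79, HSPA1B -1.46, HSPH1 -1.36, HSPE1 -0.87, PSMD1 -1.01 and PSMD12 -1.04, and genes of replication and mitosis CCNE1 -1.37, CDC6 -0.85, GINS2 -0.71, CDT1 1.55, AURKB 1.36 and PLK1 1.25.

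In cholesterol synthesis the values were HMGCS1 -2.27, NSDHL -1.82, ACAT2 -1.01 and SC5D 1.70, in nutrient sensing TXNIP 3.13, INSR 1.57, FOXO1 1.25 and YPEL5 1.32, in glycolysis ALDOC 2.61, HK1 1.42 and HK2 -0.94 and in the unfolded protein response XBP1 1.11 and SDF2L1 -1.12. Interferon-stimulated genes gave OAS3 3.38, BST2 3.12, IFIH1 3.14 and OAS1 3.35, AP-1 genes FOS 3.03, FOSL2 -2.09 and FOSL1 -1.27, and neuronal genes GAP43 -2.87, NEFM -2.56, NEFL -1.49 and SNAP25 2.10. For Ewing sarcoma markers and genes that change with EWS/FLI knockdown they were PPP1R1A 4.10, FCGRT 2.18, GSTM4 3.32, NKX2-2 0.97, PRKCB 1.42, EWSR1 -0.45 and CXCL8 -2.32, and for other markers COL6A2 3.95, AXL 3.13, LCP1 1.43, KRT8 1.22, EMCN 2.13 and CLDN5 -3.25.

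Among the genes with the largest differences they were PTGDS 3.51, XPNPEP2 4.71, TESMIN 3.41, ALDH1L1 3.08, PLEKHB1 3.20, FLOT1 3.02, GSN 3.29, TRGV9 -3.90, TARP -3.64, LAMP1 -3.53, NUP188 -2.41, PPP1R17 -3.04, B4GALNT1 -2.50, SLC6A6 -1.69, SLC2A6 -4.13, EBI3 -3.47, LTB4R 4.41, LRRC37A 4.55, DNAJC4 4.33, APAF1 -2.12 and CACNA1H 3.41.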

How the results depend on the processing

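At day 5 the ACTB ratio and the set go together without overlap. With the ratio as a covariate 59 probe sets were higher and 218 lower at day 5 (34 and 55 at 24 hours), the day 5 difference was above the 24 hour one in 33 and below in 55, and 283 differed from 3 days. Fitting all 68 arrays gave 1801 and 531 at day 5, 9 and 7 at 24 hours, 1441 and 221 for day 5 against 24 hours, 6 calls at 3 days and 564 for day 5 against 3 days. A common median gave 2344 and 7627, then 1374 and 215, then 1919 and 7469, and quantile normalization 3777 lower at day 5, 297 and 236 at 24 hours, and 2913 and 3146 for day 5 against 24 hours. Leaving out dim probe sets gave 265 and 1586 at 24 hours, and fitting only the 24 hour arrays 29 and 68. The cause was not tested for any of these. The median of the amino acid response was 0.34 with the covariate, 0.23 with a common median and 0.54 after quantile normalization, and that of ribosome biogenesis -0.77, -1.08 and -0.80, and -0.51 as the mean over all probe sets of a gene. The RNA quality difference was -0.546 for GAPDH.

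Leaving out 1 array gave 4364 to 5317 higher and 1898 to 2107 lower calls at day 5. At 24 hours it gave 71 to 176 and 239 to 1291, with 71 and 239 without replicate 1, 95 and 324 without replicate 5, 77 and 249 without replicate 6, and 620 lower without replicate 2. For day 5 against 24 hours it gave 4844 to 5737 and 1342 to 1482, at 3 days 468 to 970 (468 without replicate 5, 536 without replicate 1, 552 without replicate 4), and for day 5 against 3 days 3752 to 5486. The medians ranged from 0.61 to 0.71 (amino acid response) and from -0.64 to -0.58 (biogenesis), and the ACTB difference from -1.4 to -1.31. Of 147 named genes, 4 to 9 lost the call in each fit without a day 5 array, with log2 differences of 2.07 to 2.26 for SLC6A9 (any array), -0.28 to -0.18 for BCAT1 (any but replicate 4), 0.37 to 0.49 for FARSA and 0.70 to 0.90 for MXD4 (any but replicate 2), -0.16 to -0.098 for KRT18 (replicates 1, 2, 3 or 5), -0.32 to -0.27 for RPL14 (2, 3 or 4), 0.78 to 1.18 for DSCAM (1, 3, 4 or 5), -0.87 to -0.60 for NOL10 and 0.90 to 1.07 for CACNA1H (1 or 4), 0.41 to 0.46 for MYC (2 or 4) and -0.26 for DDX47 (1).

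Direction turned with a common median for ATF4 (-0.38) and GOT1 (-0.026), and with the covariate for SLC6A9 (-0.84), VLDLR (-0.77), QARS1 (-0.047), FARSA (-0.53), EIF2S3 (-0.13), PLK1 (-0.20), EIF4B (-0.10), DNAJC4 (-0.33), NMD3 (-0.35), RPS14 (-0.25) and RPL14 (0.36). With the covariate 105 other named genes kept the direction without passing. With a replicate block the day 5 difference was above the 24 hour one in 4822 probe sets and below in 1307. The numbers do not pair the arrays: deviations of same-numbered arrays correlated between -0.012 and 0.057. Dim signals and the cap limit what can be seen.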
